A study of Mus musculus with 4 samples.

Results

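The induction response of mouse preadipocytes was compared between control cells and cells with a knockdown of lamp2a. The cells were 3T3-L1, an established mouse line of fibroblast-like preadipocytes that forms fat cells when hormones are added at confluence. All cultures grew in medium with heat-inactivated fetal bovine serum, and RNA was taken at confluence, day 0, and at day 2 of induction with dexamethasone (250 nM), insulin (160 nM) and isobutylmethylxanthine (0.5 mM), a phosphodiesterase inhibitor that raises cAMP. The 4 groups were control cells at day 0, knockdown cells at day 0, control cells at day 2 and knockdown cells at day 2, each read on 1 one-colour microarray. The sources used here do not give how the knockdown was made or what the control cells received in its place. No culture at day 2 lacked the hormones, so the hormones and time cannot be told apart in either response.

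The control response of a gene is its log2 level at day 2 minus that at day 0 in control cells, and the knockdown response is the same in knockdown cells. The response difference is the knockdown response minus the control response, and equals the knockdown to control difference at day 2 minus that at day 0. A level is the log2 of the processed signal over the 75th percentile of its array. These percentiles were 1580 and 1228 in control cells at day 0 and day 2 and 1652 and 1096 in knockdown cells. Signals, single or summed, are printed before this scaling, while folds, responses and differences come from levels. The ratio of printed signals therefore differs from the fold given. Of 20956 genes named on the array, 11889 (56.7%) were compared, those with a probe well above background on all 4 arrays and with a processed signal over 400 on at least 1. Of the other 9067 genes, 5476 were not well above background on every array and 3591 had no signal over 400. Each group being 1 array, spread between replicates is unknown, no test was run, and a gene is called where a difference is at least 2-fold, a log2 value of at least 1 in size.

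As background, chaperone-mediated autophagy is the route by which cytosolic proteins with a recognition motif are carried by a chaperone to the lysosome and pass its membrane through multimers of LAMP2A, a product of alternative splicing of Lamp2. In 3T3-L1 adipogenesis the hormones first raise C/EBP-beta and C/EBP-delta, the arrested cells then pass through further rounds of division, and PPAR-gamma and C/EBP-alpha take over and switch on the genes of the fat cell, while factors that hold the preadipocyte state, such as GATA2 and GATA3, are shut off. A gene can therefore lose or gain a response in either direction, and the genes were sorted in that way.

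Induction lost holds the genes that rose at least 2-fold in control cells with a response at least 2-fold lower in knockdown cells, 567 genes or 4.77% of those compared. Repression gained holds those that fell at least 2-fold in knockdown cells with a response at least 2-fold lower than in control cells, 329 genes or 2.77%. Induction gained holds those that rose at least 2-fold in knockdown cells with a response at least 2-fold higher than in control cells, 131 genes or 1.1%. Repression lost holds those that fell at least 2-fold in control cells with a response at least 2-fold higher in knockdown cells, 152 genes or 1.28%. A further 16 genes moved past 2-fold in opposite directions in the cells, and 172 had a difference past 2-fold with neither response past it, 122 lower and 50 higher. In all, the response was at least 2-fold lower in knockdown cells for 1031 genes (8.67%) and higher for 336 (2.83%). These shares stand beside the counts of list members given below, also where they are not repeated. For comparison, 1072 genes (9.02%) rose and 1035 (8.71%) fell in control cells, and 731 (6.15%) rose and 1228 (10.3%) fell in knockdown cells. The median response difference over all genes was 0.07.

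**Figure D1:**
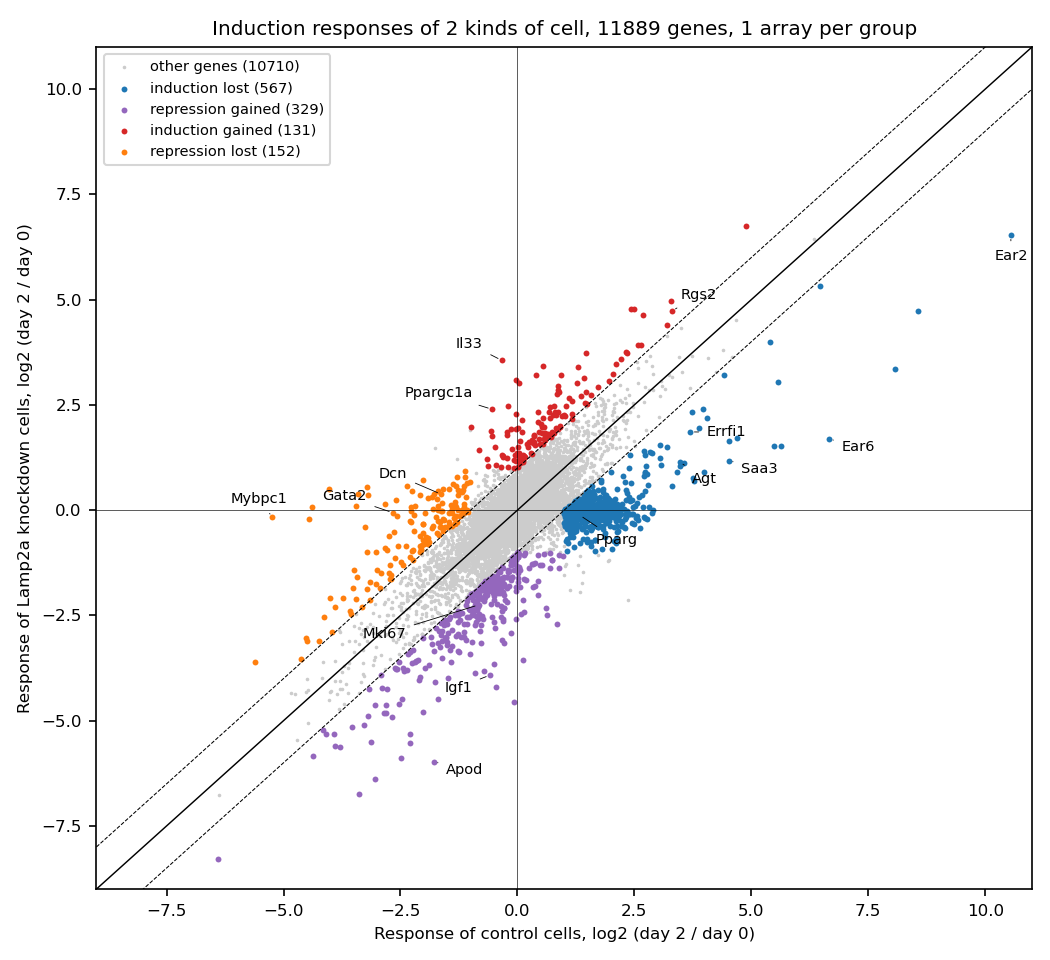
Each point is a gene, placed by its log2 response in control cells (horizontal axis) and in Lamp2a knockdown cells (vertical axis), with 1 array per group. The solid line marks equal responses and the dashed lines a 2-fold difference between them. Colours give the 4 classes of 567, 329, 131 and 152 genes, and grey points are the other genes.

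The arrays differed in ways that touch these counts. Between 67.4% and 88.6% of spots were well above background, the lowest share being on the control day 0 array, which was also the only array of its slide. The probe annotated to Lamp2 transcript NM_001017959 had signals of 31300 and 14116 in control cells at day 0 and day 2 and of 7931 and 3575 in knockdown cells, 4.13-fold and 3.52-fold lower at the same day, and its response difference was 0.23. The probe annotated to NM_010685 had signals of 122000 and 84004 in control cells and 99347 and 69061 in knockdown cells, with a response difference of 0.24. All 10 fibroblast and preadipocyte markers passed the filter, and their summed signal was 1.54e+06 and 835788 in control cells at day 0 and day 2 and 1.47e+06 and 824108 in knockdown cells. Of the markers of other cell types, 4 of 7 of macrophages and leukocytes passed it, with summed signals of 28052 to 51011, 2 of 6 of endothelium, 1 of 6 of epithelium and 4 of 7 of skeletal muscle. The pan-leukocyte gene Ptprc had signals of 43.7 to 110 and the epithelial gene Epcam was not well above background on any array, while Itgam, an integrin chain of myeloid cells, had signals of 22500 to 45274, and the part of other cells in the results was not tested. Since RNA came from whole cultures, fewer cells of a type and less RNA per cell cannot be told apart.

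Most lower responses belonged to genes that were dim on the control day 0 array. Among genes with a signal under 100 there, 85.3% of 75 had a response at least 2-fold lower in knockdown cells, with a median difference of -2.43. The share was 86.5% of 274 genes at signals of 100 to 200 and 41.4% of 638 genes at 200 to 400. Above that it was 10.4% of 1544 genes at 400 to 1000, 5.18% of 3068 genes at 1000 to 4000 and 2.34% of 6290 genes over 4000, where 2.42% were higher. The medians of the 3 upper ranges lay between -0.08 and 0.13. Restricted to 9911 genes with a signal over 400 on all arrays, 324 responses (3.27%) were lower and 225 (2.27%) higher, so that 41.0% of called genes were higher in place of 24.6%. The split also moved with the scaling, to 36.6% higher after quantile normalization and 41.3% after cyclic loess. The control day 0 array enters the control response, the response difference and the knockdown to control difference at day 0 alike.

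**Figure D2:**
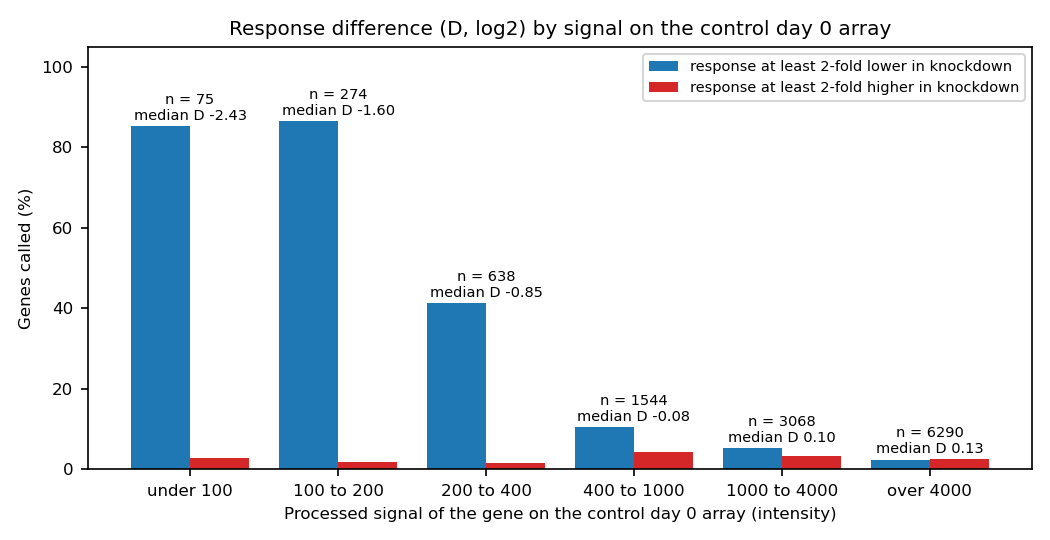
Bars give the percent of genes whose induction response was at least 2-fold lower (blue) or higher (red) in knockdown cells, for genes grouped by their processed signal on the control day 0 array. The share lower was 85.3% in the dimmest group and 2.34% in the brightest, and the number of genes and the median log2 difference stand over each pair of bars.

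The day at which knockdown and control cells differed separated the classes. Of 567 genes with induction lost, 447 (78.8%) differed between the cells by 2-fold at day 0 only, 64 at day 2 only, 22 at both days and 34 at neither. In this class 441 genes had a signal under 400 on the control day 0 array, and the median signals were 216 and 517 in control cells at day 0 and day 2 and 623 and 411 in knockdown cells. The class held 64 of the 101 compared chemosensory receptor genes, of the olfactory, vomeronasal, taste and trace amine families. In induction gained the order was turned, with 65 of 131 genes differing at day 2 only and 21 at day 0 only. In repression lost 74 of 152 differed at day 0 only and 40 at day 2 only, and in repression gained 115 of 329 and 71 did so. A signal over 400 on all arrays was found for 116 genes with induction lost, 103 with induction gained, 75 with repression lost and 151 with repression gained. Of these, the knockdown to control difference at day 2 was also past 2-fold, in the direction of the response difference, for 42, 55, 34 and 45.

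**Figure D3:**
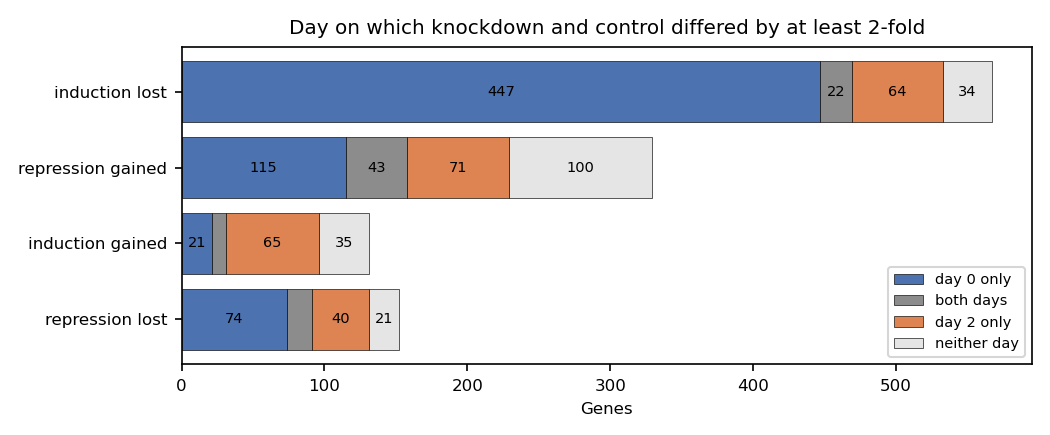
Bars count the genes of each class by the day on which knockdown and control cells differed by at least 2-fold. Induction lost consists mainly of day 0 differences (447 of 567), while in induction gained differences at day 2 only are the most frequent (65 of 131).

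Genes over 400 on just 1 array passed the filter through that array, and their differences follow in part from the filter. They numbered 198 in induction lost, 6 in induction gained, 35 in repression lost and 57 in repression gained. Repeat spots put the error within arrays far below the 2-fold size: for probes printed 10 times, the median spot SD of the response difference was 0.10 over 204 probes with a signal over 400 on all arrays, 0.16 over 27 probes whose lowest signal was 100 to 400 and 0.23 over 6 probes under 100. Near the threshold, 453 genes had a difference of 0.9 to 1.1 in size. Of 156 called genes with more than 1 compared probe, 146 had all their probes on the same side of 0 and 97 had all of them past 2-fold on that side.

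Single regulators of fat cell formation lost induction. Of 20 pro-adipogenic transcription factors compared, 3 were in the class of induction lost, against 4.77% of all genes, and 4 in all had a lower response in knockdown cells, against 8.67%, and 1 a higher one, with median responses of 0.83 in control and 0.16 in knockdown cells and a median difference of -0.14. That median was 0.0020 after quantile normalization and 0.07 after cyclic loess. Pparg, the nuclear receptor that drives terminal differentiation, had signals of 4995 at day 0 and 9717 at day 2 in control cells and of 5278 and 3235 in knockdown cells. The arrays at day 0 were close, and only the control day 2 array stood out: Pparg rose 2.50-fold in control cells and was 1.08-fold lower at day 2 in knockdown cells, a response difference of -1.44. It was -1.52 to -1.44 over 6 other scalings and background corrections. Klf5, a Krueppel-like factor upstream of Pparg, had signals of 824 and 4673 in control and 1838 and 3131 in knockdown cells. It rose in both, by 7.30-fold and 2.57-fold, and the difference of -1.51 came mostly from its 2.13-fold higher start in knockdown cells.

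Among the early B-cell factors, which act in the preadipocyte's commitment, Ebf2 had signals of 443 and 1087 in control and 1102 and 371 in knockdown cells, so that the order of the cells was reversed between the days. Its response difference was -2.64. Ebf1 had signals of 6740 and 5949 in control and 5493 and 1925 in knockdown cells, with neither response past 2-fold and a difference of -1.10. Cebpa, the partner of Pparg, was not called, at -0.85, with signals of 1720 and 3050 in control and 900 and 755 in knockdown cells. The earliest factors of the cascade, Cebpb and Cebpd, rose 3.49-fold and 5.08-fold in control cells and 5.15-fold and 7.30-fold in knockdown cells, with differences of 0.56 and 0.52 that were not called. The exception in the higher direction was Ppargc1a, a coactivator of mitochondrial and thermogenic genes, described with the gained inductions.

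Mature adipocyte genes had the highest share of lower responses among the lists of fat metabolism. Of 15 compared, 10 had a lower response in knockdown cells and none a higher one, against 8.67% lower among all genes. The median response was 1.70 in control and 0.15 in knockdown cells. Of the 15, 5 had a signal under 400 on the control day 0 array, a range in which 41.4% to 86.5% of all genes were lower. Of the 10, 7 were induction lost and 3 repression gained. Agt, which encodes the blood pressure precursor angiotensinogen, had signals of 1910 and 16391 in control and 2202 and 3231 in knockdown cells, the control day 2 array standing apart. Its log2 responses were 3.46 and 1.15, a difference of -2.32. Plin4, which coats small lipid droplets, had signals of 9890 and 3805 in control and 5310 and 331 in knockdown cells, a fall of 2.02-fold and of 10.6-fold. Here the knockdown day 2 array was the low one, and the difference was -2.40.

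In Lep, Adig and Sncg of this list the cells differed mainly at day 0. Lep, which encodes leptin, had signals of 104 and 379 in control and 422 and 310 in knockdown cells, and Adig, a small adipocyte membrane protein gene, 90.8 and 373 in control and 553 and 342 in knockdown cells. Both were low on the control day 0 array alone, with differences of -2.08 and -2.50. Retn, which encodes resistin, differed mainly at day 2 and was the highest on the control day 2 array, with signals of 72 and 592 in control and 117 and 146 in knockdown cells and a difference of -2.49. A signal over 400 was reached by Lep and Adig on the knockdown day 0 array only, and by Retn on the control day 2 array only. The differences of these genes thus follow in part from the filter. Sncg, which encodes gamma-synuclein, had signals of 736 and 953 in control and 2416 and 703 in knockdown cells, with the knockdown day 0 array high and a difference of -1.92. Over the list, knockdown cells had 7 of 15 members higher by 2-fold or more at day 0 and 4 lower by as much at day 2. Among the 9 members with a signal over 400 on all arrays 5 had a lower response, against 3.27% of all such genes. Fabp4, the fatty acid carrier, was not called, with signals of 907 and 7724 in control and 5068 and 42153 in knockdown cells. Its log2 responses were 3.45 in control and 3.65 in knockdown cells. Knockdown cells stood 5.34-fold above control at day 0 and 6.12-fold at day 2. Adipoq, which encodes adiponectin, did not pass the filter.

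**Figure D4:**
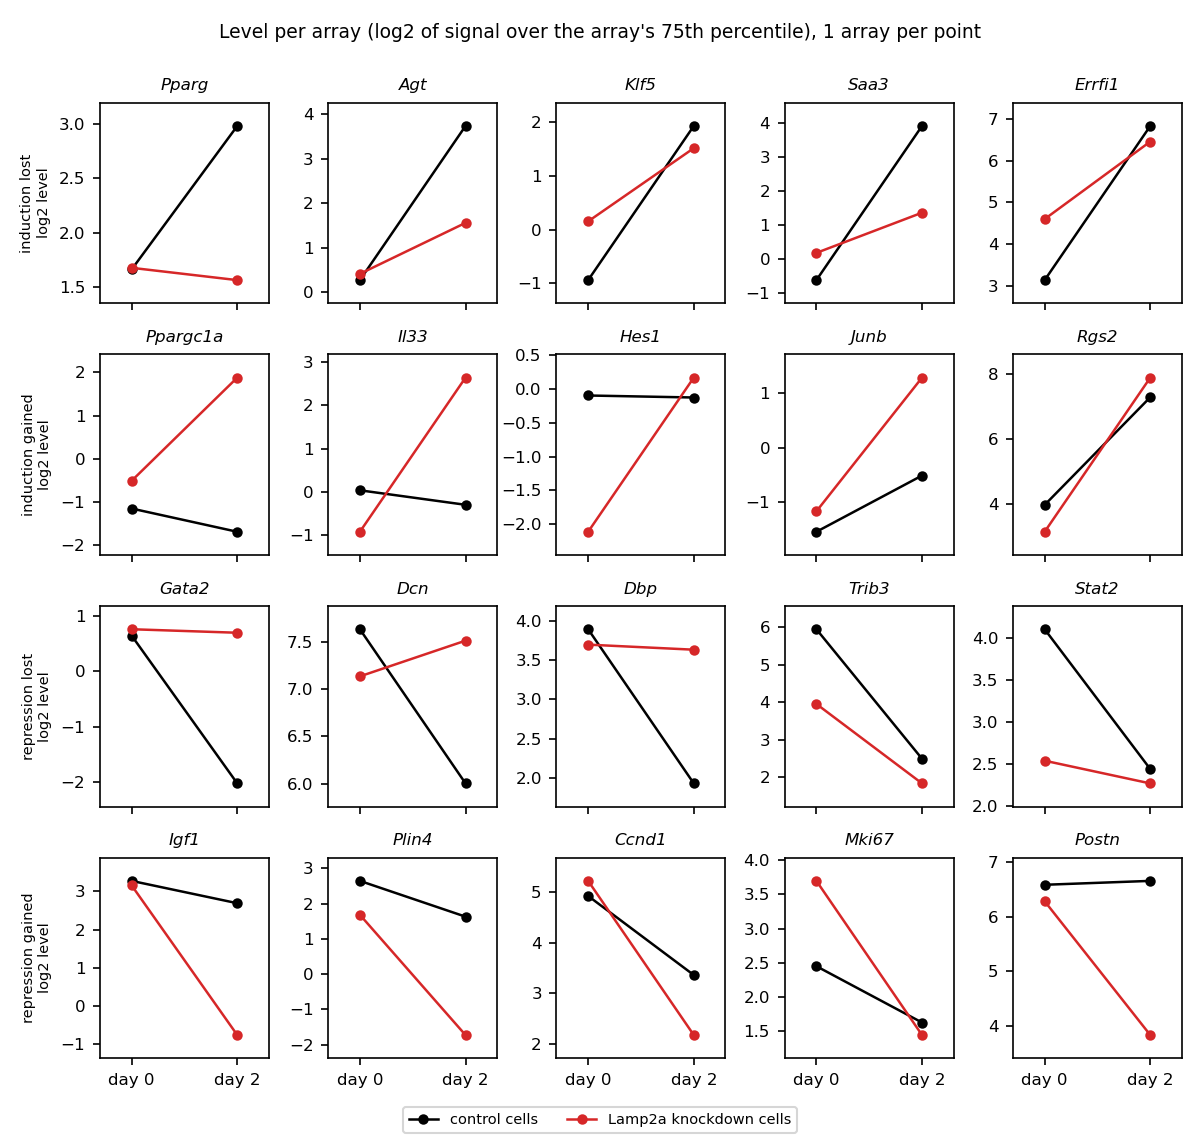
Each panel shows the log2 level of a gene (signal over the array's 75th percentile) at day 0 and day 2 in control (black) and Lamp2a knockdown cells (red), 1 array per point, with 5 genes of each class. Pparg, Gata2, Igf1 and Postn start close together and part at day 2, whereas Hes1, Mki67, Stat2 and Errfi1 differ at day 0 and come closer at day 2.

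Enzymes of lipid synthesis and breakdown responded more alike. Of 19 genes of fatty acid and triglyceride synthesis, 1 had a lower response and none a higher one, the monoacylglycerol acyltransferase gene Mogat2, with signals of 280 and 58.6 in control and 2482 and 128 in knockdown cells. Mogat2 passed the filter through the knockdown day 0 array only, so its difference follows in part from the filter. Of 24 cholesterol synthesis genes, the isomerase gene Idi1 alone was called, lower by 1.21, and the median responses of the list were -0.45 in control and -0.77 in knockdown cells. No member was called among 21 genes of fatty acid oxidation, whose differences lay between -0.79 and 0.71, or among 28 of the mitochondrial respiratory chain, between -0.21 and 0.24.

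Acute-phase genes, which encode secreted proteins of inflammation, and eosinophil-associated ribonucleases had the highest median inductions of the 37 lists in control cells, and lower ones in knockdown cells. Of 12 acute-phase genes, 7 had a lower response in knockdown cells, against 8.67% of all genes, and 2 a higher one, against 2.83%. The median responses of the list were 3.58 in control and 1.58 in knockdown cells. Of the 12, 5 had a signal under 400 on the control day 0 array, a range in which 41.4% to 86.5% of all genes were lower. Among the 6 members with a signal over 400 on all arrays 4 were lower and 1 higher, against 3.27% and 2.27% of all such genes. Lcn2, which encodes the iron-scavenging lipocalin, had signals of 476 and 17669 in control and 688 and 3759 in knockdown cells, rising 47.8-fold and 8.24-fold. Saa3, a serum amyloid A gene, had signals of 1030 and 18332 in control and 1873 and 2809 in knockdown cells, with a difference of -3.34. In both genes the control day 2 array was far above the other 3. Il1rn, which encodes the antagonist of the interleukin-1 receptor, had signals of 133 and 1652 in control and 135 and 168 in knockdown cells, a rise of 16.0-fold in control cells against a response of 1.88-fold, not past 2-fold, in knockdown cells, and its difference was -3.09. Serpina3n, a protease inhibitor gene, went the other way, with signals of 44.6 and 338 in control and 138 and 2855 in knockdown cells and a difference of 1.68. Il1rn passed the filter through the control day 2 array only, and Serpina3n through the knockdown day 2 array only. Their differences thus follow in part from the filter.

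Ear6, Ear10, Ear2 and Rnase2a, ribonucleases first found in eosinophil granules, rose 101-fold to 1497-fold in control cells and 3.23-fold to 92.4-fold in knockdown cells. These folds start from dim signals, of 39.4 to 181 on the control day 0 array. Of all genes, 85.3% under a signal of 100 there and 86.5% at 100 to 200 had a lower response. Ear6 had signals of 181 and 14241 in control and 372 and 798 in knockdown cells, and its difference of -4.97 was the lowest of any gene with induction lost. Ear2 had signals of 39.4 and 45838 in control and 93.1 and 5706 in knockdown cells, with a difference of -4.02. At day 2 the control array was 7.17-fold to 15.9-fold above the knockdown array for these genes. These genes are related in sequence, and whether a probe reads only 1 of them was not tested. Rnase4, a more distant relative, was in the opposite class, with signals of 38800 and 29739 in control and 11401 and 28764 in knockdown cells. With a signal over 400 on all arrays 2 members of the list were left, with a median difference of 0.85.

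Genes known to respond to glucocorticoids mostly rose in each kind of cell. Of 18 glucocorticoid-responsive genes, 12 rose in control and 11 in knockdown cells. A lower response in knockdown cells was found for 4, against 8.67% of all genes, and a higher one for none. The median difference was -0.15. Of the 4, 3 already stood 2-fold or more above control before induction. Errfi1, a feedback inhibitor of EGF receptors, had signals of 13900 and 139900 in control and 40054 and 96258 in knockdown cells, a rise of 12.9-fold and 3.62-fold. Glul, which encodes glutamine synthetase, had signals of 2020 and 33624 in control and 4479 and 27376 in knockdown cells, and the cells were close at day 2. The zinc-finger factor gene Zbtb16 rose 42.1-fold in control cells, from a signal of 151, and 15.9-fold in knockdown cells, a difference of -1.40 that was -0.78 after quantile normalization. Sult1a1, a sulfotransferase gene, differed at day 2, with signals of 597 and 1636 in control and 329 and 114 in knockdown cells.

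Other genes with induction lost were named for the size of their difference. Cyp2f2, a cytochrome P450 gene, had signals of 905 and 9441 in control and 1738 and 1964 in knockdown cells. Dio2, whose product activates thyroid hormone, had signals of 41.2 and 1432 in control and 261 and 499 in knockdown cells, so that knockdown cells stood 6.07-fold above control at day 0 and 2.56-fold below it at day 2. Col18a1, of a basement membrane collagen, had signals of 10500 and 26881 in control and 13430 and 6779 in knockdown cells, with a difference of -2.11, and Id4, an inhibitor of DNA binding, was of the same kind. For Gm14496, 4930444P10Rik, Lrg1 and the vomeronasal receptor gene Vmn2r4 the control day 0 array was the low one, 4.75-fold to 7.12-fold below the knockdown day 0 array, and the cells differed by 1.05-fold to 1.47-fold at day 2. Cyp2f2, Col18a1 and Id4 thus differed mainly at day 2, and the latter 4 genes at day 0.

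Gains of induction included immediate early factors, genes of the cAMP response and single cytokines. Of 19 cAMP-responsive and immediate early genes, 7 had a higher response in knockdown cells and none a lower one, against 2.83% higher among all genes, and the median response was 1.04 in control and 1.76 in knockdown cells. Rgs2, an inhibitor of G-protein signalling, had signals of 24800 and 190260 in control and 14656 and 257460 in knockdown cells, rising 9.87-fold and 26.5-fold. Pde4d, a phosphodiesterase gene induced by cAMP, had signals of 1040 and 5228 in control and 502 and 8312 in knockdown cells, with a difference of 1.95 at its brightest probe and 0.61 at the other. Junb, a subunit of AP-1, had signals of 539 and 859 in control and 732 and 2677 in knockdown cells, the knockdown day 2 array being 3.49-fold above the control day 2 array. Fosl2, also of AP-1, and Ier3 had differences of 1.22 and 1.32, and at day 2 knockdown cells had 6 of the 19 members higher by 2-fold or more. Atf3, a stress-induced factor, was called for another reason: it fell in control cells from 1360 to 221 and differed little between the cells at day 2, where its signal was 198 in knockdown cells.

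Ppargc1a had signals of 709 and 379 in control and 1157 and 4036 in knockdown cells, so that it rose 5.26-fold in knockdown cells alone and was 11.9-fold above control at day 2. Its response difference was 2.93, and 3.76 at its other probe. Il33, a cytokine of the interleukin-1 family, had signals of 1620 and 999 in control and 873 and 6811 in knockdown cells, and the difference of 3.89 was the highest of this class. Il6 had signals of 620 and 636 in control and 217 and 1333 in knockdown cells, with knockdown cells 3.00-fold lower at day 0 and 2.35-fold higher at day 2. Il11, of the same cytokine family, had signals of 452 and 634 in control and 865 and 3864 in knockdown cells. Among 18 chemokine, cytokine and NF-kB feedback genes, 5 responses were higher and 3 lower, with a median difference of 0.02 that was -0.36 over the 15 members with a signal over 400 on all arrays. The lower ones were the chemokine genes Cxcl10, Ccl5 and Ccl9, which fell further in knockdown cells, by 22.5-fold, 4.71-fold and 9.01-fold.

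Growth factor genes were split in the same way. Of 20 growth factor and receptor genes, 6 had a higher and 4 a lower response, against 2.83% and 8.67% of all genes. Vegfa, the angiogenic factor, had signals of 14700 and 31790 in control and 13620 and 63604 in knockdown cells, rising 2.78-fold and 7.04-fold. Hgf, the ligand of the receptor Met, had signals of 1320 and 2533 in control and 540 and 3793 in knockdown cells, with a difference of 2.10. Met itself went the other way, with signals of 260 and 285 in control and 912 and 245 in knockdown cells. It passed the filter through the knockdown day 0 array only, so its difference follows in part from the filter. Egfr had signals of 7038 and 10276 in control and 5140 and 1704 in knockdown cells, 5.38-fold lower in knockdown cells at day 2, and a difference of -1.91. Tgfb2, a transforming growth factor gene, had signals of 4340 and 2146 in control and 4781 and 7310 in knockdown cells, and the difference of 1.86 was 1.85 at its other probe.

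The circadian clock list had the highest median response difference of the 37 lists, 0.72. Of 15 members, 6 had a higher response in knockdown cells, against 2.83% of all genes, and none a lower one. At day 2 knockdown cells had 6 members 2-fold or more above control. Dbp, an output factor of the clock, had signals of 23500 and 4678 in control and 21446 and 13600 in knockdown cells, a fall of 3.90-fold in control cells that was 1.05-fold in knockdown cells. Bhlhe40, a clock repressor, had signals of 3330 and 2095 in control and 3027 and 4837 in knockdown cells, with a difference of 1.57. Nfil3, which competes with DBP for its sites, rose 6.23-fold and 15.0-fold. Nr1d1 and Nr1d2, the Rev-erb receptors, had differences of 1.19 and 1.15 with neither response past 2-fold. The sources used here do not give the hour of harvest.

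Single genes of redox and glucose metabolism gained induction, while the medians of their lists were below 0. Gclc, the catalytic subunit of glutathione synthesis, had signals of 2250 and 7156 in control and 2300 and 14382 in knockdown cells, and it and Gsr were the 2 called members of 17 NRF2 target and glutathione genes, whose median difference was -0.11. Pfkfb3, which activates glycolysis, had signals of 1820 and 2018 in control and 1479 and 4056 in knockdown cells. In the list of 25 glycolysis and hypoxia-responsive genes 3 responses were higher and 4 lower, with a median difference of -0.10. Hes1, the Notch target, was a gain by its low start: its signals were 1480 and 1127 in control and 382 and 1233 in knockdown cells. The same pattern held for Slc35e1, with signals of 3540 and 2701 in control and 436 and 2448 in knockdown cells, though its other probe gave a difference of 0.28 against 3.11.

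Losses of repression included some of the genes that hold the preadipocyte state. Of 20 preadipocyte and anti-adipogenic genes, 6 had a higher response in knockdown cells, against 2.83% of all genes, and none a lower one, with a median difference of 0.69. Of the 6, 5 were repression lost and 1, Hes1, induction gained. At day 0 knockdown cells had 5 of the 20 members lower and 1 higher by 2-fold or more, and at day 2 they had 3 lower and 3 higher. Among the 15 with a signal over 400 on all arrays 2 were higher, against 2.27% of all such genes, and the median was 0.30. These were Klf2 and Ddit3, each lower in knockdown cells at day 0. Of the 20 differences 13 were above 0 and 7 below. Dlk1 of this list was not called, with log2 responses of -0.42 in control and -0.43 in knockdown cells. Gata2 had signals of 2460 and 303 in control and 2785 and 1768 in knockdown cells, with only the control day 2 array low. It fell 6.31-fold in control cells and was 1.04-fold lower at day 2 in knockdown cells, a difference of 2.59. Gata3 fell in both, by 5.65-fold and 3.20-fold, and its difference of 0.82 was not called. Klf2, a Krueppel-like factor that represses Pparg, had signals of 10800 and 1725 in control and 4392 and 2413 in knockdown cells, with knockdown cells 2.57-fold lower at day 0. Sfrp2, a secreted Wnt modulator, was below control at both days, with signals of 16800 and 982 in control and 700 and 109 in knockdown cells, and its call of repression lost reflects a smaller fall from a lower start. Runx1 was called at its brightest probe, at 1.29, and not at the other, at 0.45.

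Dcn, which encodes the matrix proteoglycan decorin, had signals of 313000 and 78827 in control and 231920 and 199650 in knockdown cells, so that a 3.09-fold fall in control cells was absent in knockdown cells. Foxo6, a forkhead factor gene, had signals of 3650 and 593 in control and 2711 and 2483 in knockdown cells, and Stbd1, a glycogen-binding protein gene, 8770 and 1501 in control and 7134 and 5080 in knockdown cells. In these genes the control day 2 array was the low one. Mybpc1, Cxxc4, Olfr360 and Ccdc63 had larger differences, of 4.25 to 5.06, of another make: their signals were 452 to 1460 on the control day 0 array and 16.7 to 68.6 on each of the other arrays. For Mybpc1 the direction was reversed with no minimum signal, where another probe stood for the gene. In Nkx6-1 and Cpz, too, the control day 0 array was the only high one.

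Interferon-stimulated genes, which encode antiviral proteins, fell in both kinds of cell and appear in both repression classes. Of 22 compared, 21 fell in control and 20 in knockdown cells, with median responses of -3.70 and -3.10, and 5 had repression lost and 4 repression gained. At day 0, 18 of the 22 already stood 2-fold or more below control in knockdown cells. Stat2, a transducer of interferon signals, had signals of 27200 and 6672 in control and 9620 and 5289 in knockdown cells, with a difference of 1.39. Oas2, an antiviral synthetase gene, had signals of 27100 and 432 in control and 2530 and 138 in knockdown cells, and a difference of 2.00. Ifit3 had signals of 39300 and 361 in control and 15239 and 32.5 in knockdown cells, and its difference of -1.87 was -0.47 with normexp background correction. The difference of Oas1a was -1.46 at its brightest probe and 1.16 at the other. Among the 8 members with a signal over 400 on all arrays, 2 had a higher response and none a lower one.

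Genes of the unfolded protein and integrated stress response were called in both directions. Of 21 compared, 3 had a higher response, all repression lost, against 2.83% of all genes, and 2 a lower one, against 8.67%. Trib3, a pseudokinase gene induced by that response, had signals of 97400 and 6885 in control and 25551 and 3895 in knockdown cells, and Ddit3, which encodes the factor CHOP, 20800 and 4192 in control and 7462 and 3154 in knockdown cells. Both were lower in knockdown cells at day 0, by 3.99-fold and 2.91-fold, and fell less. Mthfd2 and Psat1, enzymes of one-carbon and serine metabolism, were the lower ones, at -1.23 and -1.11.

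Gains of repression were led, by number of list members, by cell-cycle genes. Of 26 genes of G2 and mitosis, 15 had a lower response in knockdown cells, against 8.67% of all genes, and none a higher one. All 26 differences were below 0, with median responses of -0.78 in control and -1.65 in knockdown cells. Of 33 genes of S phase and DNA replication, 13 were lower, against the same 8.67%, and none higher. All 33 differences were below 0, and the median responses were -0.48 in control and -1.12 in knockdown cells. The list of G2 and mitosis stood higher in knockdown cells at day 0, by a median of 0.79 with 8 members past 2-fold, and lower at day 2, by -0.27 with 1 member past 2-fold. For S phase the medians were 0.56 at day 0 and -0.31 at day 2. Mki67, the proliferation marker, had signals of 8640 and 3801 in control and 21393 and 2987 in knockdown cells, with a difference of -1.43 at its brightest probe and -1.34 at the other. The knockdown day 0 array was the high one and the day 2 arrays were close.

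Ccnb2, which encodes cyclin B2, had signals of 8700 and 3945 in control and 18519 and 3538 in knockdown cells, Cdc20, the activator of the anaphase-promoting complex, 15100 and 5537 in control and 29529 and 4365 in knockdown cells, and Kif11, the spindle kinesin, 608 and 300.2 in control and 1481 and 270.3 in knockdown cells. These 3 genes were chosen after their values were seen, for their promoters. Tk1, thymidine kinase, had signals of 7890 and 3264 in control and 16588 and 1671 in knockdown cells, with a difference of -1.81, the lowest of the S-phase list. Rrm2, a subunit of ribonucleotide reductase, was 2.31-fold below control at day 2, with signals of 13300 and 10079 in control and 20670 and 3886 in knockdown cells. Top2a and Pcna were the members with induction lost: Top2a had signals of 3120 and 7834 in control and 5072 and 2615 in knockdown cells, and Pcna 62500 and 104670 in control and 64632 and 36915 in knockdown cells. In both the control day 2 array was the high one.

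Of the G1 regulators, 3 of 21 had a lower response, against 8.67% of all genes, and none a higher one. Ccnd1, which encodes cyclin D1, had signals of 47700 and 12625 in control and 61252 and 4970 in knockdown cells, falling 2.94-fold and 8.17-fold. Myc was not called, at -0.56. Of 25 ribosome biogenesis genes, 24 had differences below 0 and Odc1, of polyamine synthesis, alone was called, at -1.46 and at -1.49 to -1.31 over its probes.

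The promoters of these lists and of the response classes were searched for known elements. Known cell-cycle elements are the CCAAT box, bound by NF-Y, the CHR element TTTGAA, bound by the DREAM and MuvB complexes, and E2F sites, here TTTGGCGC or TTTCCCGC, and the interferon element was searched as GAAANNGAA. Also searched were the cAMP element TGACGTCA, the glucocorticoid half-site AGAACA, the C/EBP palindrome TTGCGCAA, the TEAD site GGAATG and the sterol element TCACCCCA. The letters were searched on both strands in 300 bases, from 250 before to 50 after each RefSeq start in build GRCm38.p6. The 250 bases before the start, 5′ to 3′ on the gene's strand, are printed for 4 mitotic and 2 replication genes with repression gained, CCAAT boxes and CHR or E2F letters in capitals, and for Stat2 and Ifit3, interferon letters in capitals.
Ccnb2, chr9:70421555-70421804, minus strand: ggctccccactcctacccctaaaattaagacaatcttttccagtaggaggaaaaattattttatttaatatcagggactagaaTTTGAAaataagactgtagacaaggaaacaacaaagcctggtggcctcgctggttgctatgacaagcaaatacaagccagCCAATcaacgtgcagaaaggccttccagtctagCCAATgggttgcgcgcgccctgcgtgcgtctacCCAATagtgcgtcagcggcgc
Cdc20, chr4:118437344-118437593, minus strand: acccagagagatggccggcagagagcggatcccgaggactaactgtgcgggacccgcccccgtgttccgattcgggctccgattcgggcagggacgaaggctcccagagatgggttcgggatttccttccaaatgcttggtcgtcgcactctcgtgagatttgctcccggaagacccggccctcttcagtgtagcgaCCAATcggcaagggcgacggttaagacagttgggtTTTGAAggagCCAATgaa
Kif11, chr19:37376132-37376381, plus strand: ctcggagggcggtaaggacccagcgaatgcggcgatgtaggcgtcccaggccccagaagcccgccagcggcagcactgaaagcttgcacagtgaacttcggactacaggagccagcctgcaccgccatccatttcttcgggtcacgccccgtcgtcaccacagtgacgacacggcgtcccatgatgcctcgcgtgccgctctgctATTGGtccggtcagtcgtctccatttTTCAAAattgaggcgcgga
Mki67, chr7:135716380-135716629, minus strand: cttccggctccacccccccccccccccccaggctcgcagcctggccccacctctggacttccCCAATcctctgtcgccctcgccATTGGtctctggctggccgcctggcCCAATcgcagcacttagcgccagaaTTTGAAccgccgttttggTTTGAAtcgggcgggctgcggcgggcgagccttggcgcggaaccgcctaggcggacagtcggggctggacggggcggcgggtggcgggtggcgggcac
Mcm5, chr8:75109259-75109508, plus strand: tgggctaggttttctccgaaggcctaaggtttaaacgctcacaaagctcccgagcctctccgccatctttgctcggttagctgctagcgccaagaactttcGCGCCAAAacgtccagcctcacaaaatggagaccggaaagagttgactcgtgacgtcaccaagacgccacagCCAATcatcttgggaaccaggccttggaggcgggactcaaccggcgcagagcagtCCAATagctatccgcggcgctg
Cdc6, chr11:98907901-98908150, plus strand: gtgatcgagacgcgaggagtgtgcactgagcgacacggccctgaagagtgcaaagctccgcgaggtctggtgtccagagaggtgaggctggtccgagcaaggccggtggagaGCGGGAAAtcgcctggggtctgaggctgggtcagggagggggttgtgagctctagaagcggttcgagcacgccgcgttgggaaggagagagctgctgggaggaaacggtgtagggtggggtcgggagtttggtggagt
Stat2, chr10:128270248-128270497, plus strand: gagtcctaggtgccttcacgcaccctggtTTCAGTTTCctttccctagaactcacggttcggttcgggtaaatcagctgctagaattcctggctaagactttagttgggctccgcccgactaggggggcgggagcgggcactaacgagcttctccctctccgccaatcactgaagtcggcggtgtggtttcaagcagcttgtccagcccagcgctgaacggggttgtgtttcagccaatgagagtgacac
Ifit3, chr19:34583279-34583528, plus strand: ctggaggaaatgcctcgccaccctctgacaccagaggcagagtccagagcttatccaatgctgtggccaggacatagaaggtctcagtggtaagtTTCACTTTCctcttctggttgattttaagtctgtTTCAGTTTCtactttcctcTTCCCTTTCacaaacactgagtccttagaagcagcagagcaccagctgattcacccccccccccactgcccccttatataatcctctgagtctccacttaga

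In the Cdc20 sequence a CCAAT box begins 53 bases and the CHR letters 18 bases before the start, and in the Kif11 sequence 45 and 19 bases before it, on the opposite strand. Ccnb2 holds 3 CCAAT boxes, at 87, 54 and 21 bases before the start, and Mki67 holds 3 CCAAT boxes and 2 CHR matches. Over the list of G2 and mitosis, 86.4% of 22 promoters held a CCAAT box and 63.6% the CHR letters. Over the S-phase list 60.6% of 33 held a CCAAT box and 27.3% an E2F site. Shares over a list count its compared members, called or not, so they describe the list and not the responses. In all 32851 promoters of the table the shares were 37.4% for CCAAT, 17.9% for CHR and 1.56% for E2F, and in the 12107 promoters of compared genes 38.0%, 12.4% and 2.82%. In the whole class of repression gained, 50.2% of 299 promoters held a CCAAT box, 23.4% the CHR letters and 4.01% an E2F site. In induction lost 33.6% of 529 promoters held a CCAAT box, 95 of the 529 the CHR letters, a share above that of compared genes, and 1.32% an E2F site. The interferon letters were in 55.0% of 20 promoters of interferon-stimulated genes, against 8.56% of all promoters, and in 10.3% of repression lost and 10.0% of repression gained. The cAMP element was in 0 of 17 promoters of the cAMP-responsive list and in 2.33% of induction gained, against 2.94% of compared genes. In induction lost the glucocorticoid half-site was in 17.0%, against 12.8% of compared genes and 19.0% of all promoters. The sterol element was in 3.59% of that class and the TEAD site in 16.6%, against 1.49% and 12.4% of compared genes. The C/EBP palindrome was in 0.57% of it and 0.31% of compared genes. A match of letters is a description and does not show binding.

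Outside the cell cycle, repression gained held growth, matrix and contractile genes. Of those named here, Igf1, Ogn and Postn were within 1.23-fold of control at day 0, while Apod, Acta2 and Myl9 were already 4.83-fold, 3.86-fold and 3.50-fold lower in knockdown cells. Igf1, the insulin-like growth factor, had signals of 15295 and 7928 in control and 14736 and 647 in knockdown cells, with only the knockdown day 2 array low. It fell 15.1-fold in knockdown cells and had a log2 response of -0.58 in control cells, a difference of -3.33, with its 4 probes at -3.33 to -1.27. Apod, a lipocalin gene of arrested fibroblasts, had signals of 135000 and 30323 in control and 29252 and 309 in knockdown cells, and a difference of -4.18. Ogn and Postn, which encode the matrix proteins osteoglycin and periostin, had signals of 54714 and 124150 in control cells at day 2 against 6052 and 15568 in knockdown cells. Adh7, an alcohol dehydrogenase gene, had signals of 8740 and 3933 in control and 5416 and 401 in knockdown cells.

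Of 26 matricellular and proteoglycan genes, 5 had a higher and 5 a lower response, with a median difference of 0.09. The higher ones included Ccn5, with signals of 11900 and 4658 in control and 5538 and 14409 in knockdown cells, and the elastic fibre gene Fbln5, with 16800 and 7382 in control and 3508 and 6267 in knockdown cells. Of 18 collagens, 4 were lower and 1 higher, Col16a1, at 1.26. Smooth muscle contractile genes were split as well, with 3 of 11 lower and 2 higher. Acta2, smooth muscle actin, had signals of 182090 and 20281 in control and 49375 and 1159 in knockdown cells, and Myl9, a myosin light chain, 114000 and 10672 in control and 34106 and 269 in knockdown cells. Both fell further in knockdown cells, whereas Tagln, which encodes transgelin, fell from 17500 to 2184 in control cells and had 2077 and 965 in knockdown cells. All 3 were lower in knockdown cells on both days.

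The genes that moved in opposite directions numbered 13 that rose in control and fell in knockdown cells, and 3 that did the reverse. Aspn, which encodes the matrix protein asporin, had signals of 27100 and 45863 in control and 7430 and 1332 in knockdown cells, rising 2.18-fold and falling 3.70-fold. Clca3a1, a chloride channel accessory gene, had signals of 5890 and 17679 in control and 1126 and 328 in knockdown cells, and Clca3a2, a near-identical copy, gave the same picture. Ptx3, which encodes a pentraxin of innate immunity, was the reverse, with signals of 19000 and 6013 in control and 12790 and 19618 in knockdown cells. Gm9961 had the lowest difference of these, -4.50, with a signal of 804 on the knockdown day 0 array and 42.2 to 170 on the others.

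**Figure D5:**
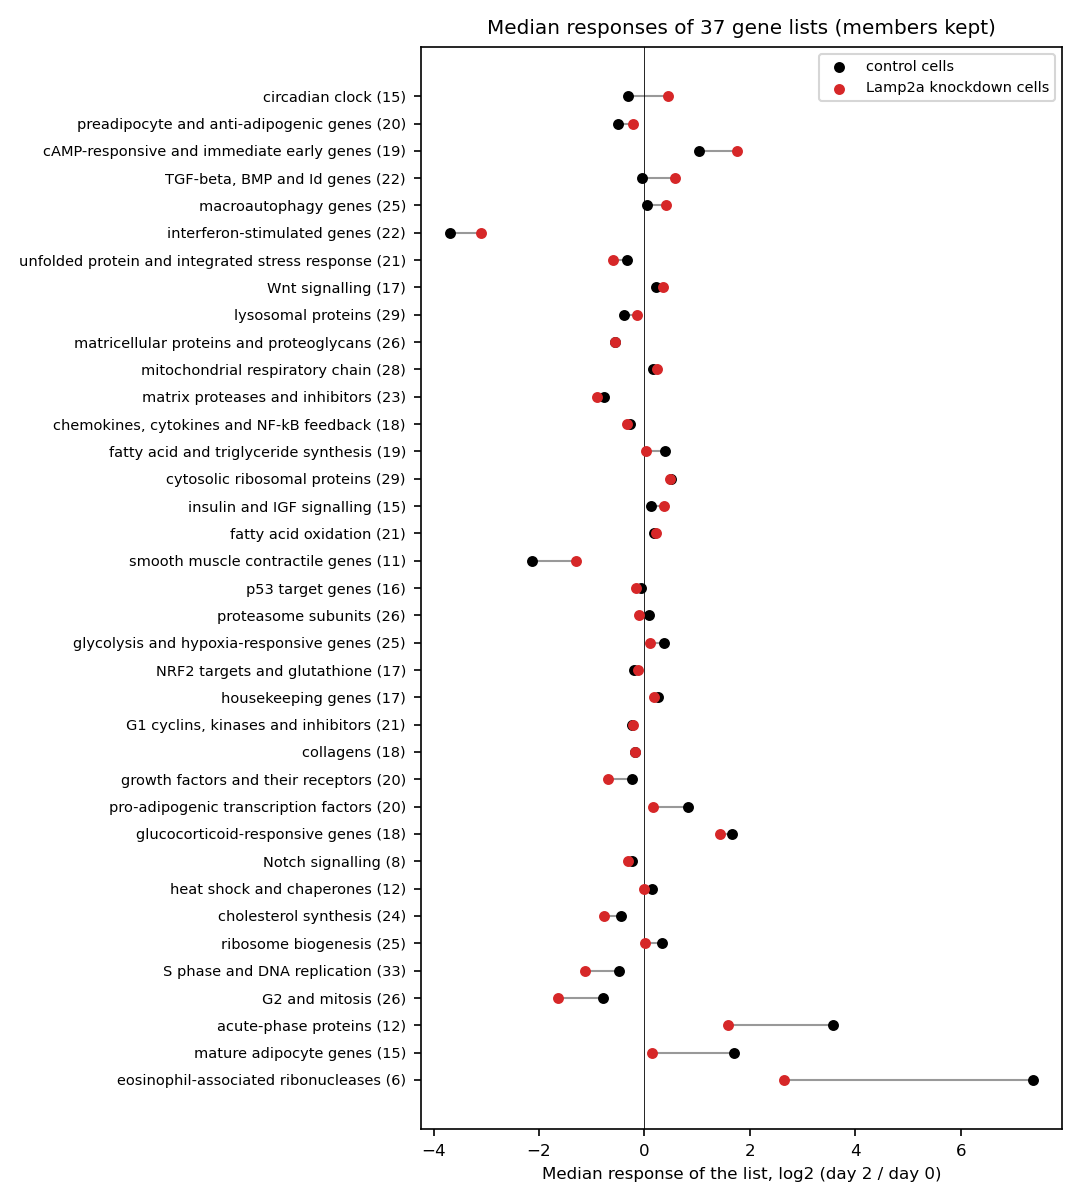
For each of 37 gene lists, dots give the median log2 response in control (black) and Lamp2a knockdown cells (red), with the number of members compared in brackets and lists ordered by the median response difference. The eosinophil-associated ribonucleases, mature adipocyte genes, acute-phase proteins and the cell-cycle lists are at the bottom and the circadian clock, preadipocyte and cAMP-responsive lists at the top, and the median of differences need not equal the difference of the 2 medians.

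Across the 37 lists, 7 had no member called, 10 had members called lower only, 5 higher only and 15 in both directions. The lists with none included those nearest to the targeted protein: 29 lysosomal protein genes had differences of -0.93 to 0.76 with a median of 0.24, and 25 macroautophagy genes -0.08 to 0.79 with a median of 0.37 and 21 of the 25 above 0. The 29 cytosolic ribosomal protein genes had a median of -0.03 and lay between -0.28 and 0.14, 17 housekeeping genes had a median of -0.12, and 16 p53 target genes one of -0.08. Of 26 proteasome subunits 1 was called, Psma1, at -1.19.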

How the data were processed

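Total RNA of each culture was hybridised with Cy3 to a one-colour Agilent mouse array. Per the file headers, the scans were read by Feature Extraction, version 10.7.3.1. The deposited values are spot intensities, and the processed signal used here is background-subtracted and, where the software chose so, detrended by the authors' scanner software. On the knockdown day 0 array the multiplicative detrending was not applied, and the control day 0 file gives its signals rounded.

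Control spots and outlier spots were left out, spots of a probe averaged, each array divided by its 75th percentile and log2 taken. Probes were named by RefSeq accession through a table of GRCm38.p6, used for names only, and the brightest compared probe stood for a gene. Python 3.11.15, numpy 2.4.6, pandas 2.3.3 and matplotlib 3.10.9 were used, with R 4.3.3 and limma 3.58.1 for normexp (offset 50), quantile and cyclic loess normalization. The sorting was tested on simulated data. Promoters are RefSeq's, build GRCm38.p6.

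Named genes were, per class, the 12 largest differences among genes with a signal of at least 100 on all arrays and every compared probe on 1 side of 0, and the 4 largest of the rest; up to 6 called members of each list; the 6 largest of the genes that moved in opposite directions; and a short fixed set. The members, lists and rule were chosen with earlier results of these data known. In all, 13 alternatives were set beforehand and 2 were added after seeing the data. With 1 array per group no SD, interval or p-value is given, and the number of arrays limits the precision.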

Additional observations from a re-analysis of the deposited data

Results flagged for a closer look

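In 16 genes the responses of control and knockdown cells ran in opposite directions, each past 2-fold. The differences were not tested, since each group has 1 array.

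The response difference was negative, a rise in control and a fall in knockdown cells, for Gm9961 (-4.50), Gpr149 (-3.28), Clca3a1 (-3.14), Clca3a2 (-3.13), Mak (-3.11), Aspn (-3.01), Klra4 (-2.86), Rab15 (-2.79), Iqck (-2.60), Hba-a1 (-2.53), Aldh3a1 (-2.44), Plet1 (-2.35) and H3c8 (-2.34). It was positive for Slfn2 (3.23), Sema3c (2.91) and Ptx3 (2.51). Those not taken by the rule for named genes are given because of this pattern, after their values were seen.

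Gpr149, which encodes an orphan receptor, had signals of 686 and 1346 in control and 811 and 140 in knockdown cells. Sema3c, which encodes a secreted semaphorin, had signals of 21800 and 8412 in control and 3143 and 7765 in knockdown cells, so that the cells differed at day 0 and were close at day 2. Aldh3a1, an aldehyde dehydrogenase gene, had signals of 10200 and 20104 in control and 14893 and 4605 in knockdown cells and differed mainly at day 2.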

How the results depend on the processing

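Of the genes called, 257 with a higher and 602 with a lower response were called under all 6 other scalings and background corrections. Induction lost counted 313 genes after quantile normalization and 313 after cyclic loess, which also gave 686 lower responses and 250 genes with repression lost. With a signal over 400 on all arrays there were 324 lower responses, 116 genes with induction lost, 75 with repression lost and 151 with repression gained, and with no minimum signal 2638 lower responses and 1856 genes with induction lost. A 1.5-fold size gave 1151 higher and 1788 lower responses and 933, 490, 432 and 671 genes with induction lost, induction gained, repression lost and repression gained, and a 3-fold size 116, 425, 238, 40, 55 and 106 in the same order. Of the alternatives added after seeing the data, a signal over 400 on the control day 0 array gave 465 lower responses and 126 genes with induction lost, and a difference also present at day 2 gave 140, 215, 85, 75, 46 and 106. Of called genes 14.3% were higher with no minimum signal. The median of the eosinophil-associated ribonucleases was 0.85 with a signal over 400 on all arrays, where 2 members were left. The difference of Mybpc1 was -0.89 with no minimum signal, where another probe, of higher mean level, stood for the gene. Apart from the filters and sizes, whose construction sets the number of genes, the cause was not tested. No paired analysis was possible because each group has 1 array, and no array could be left out for the same reason. Low signal on the control day 0 array limits the genes with induction lost.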

Other observations

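Some genes had a response difference past 2-fold with neither response past it, 122 lower and 50 higher. Egfr, Ebf1, Adamts2 and Mthfd2 were of the lower kind, and Fgf7, Smad7, Nr1d1 and Nr1d2 of the higher. Adamts2, which encodes a procollagen protease, had signals of 90400 and 82020 in control and 56881 and 20322 in knockdown cells, with a difference of -1.12. Fgf7, a fibroblast growth factor gene, had signals of 21800 and 11938 in control and 23938 and 30464 in knockdown cells, with a difference of 1.45. Smad7, an inhibitor of TGF-beta signals, had signals of 2890 and 1406 in control and 2221 and 2378 in knockdown cells, with a difference of 1.37. In Fgf7 the cells were close at day 0 and parted at day 2.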
